A study of Mus musculus with 8 samples.

Results

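Platelets are shed by megakaryocytes, which in the mouse are found in the spleen as well as in the bone marrow, and circulating platelets pool in the splenic red pulp. The genes described here code for proteins by which these cells are recognised: the granule chemokines Pf4 and Ppbp, the fibrinogen receptor made of Itga2b and Itgb3, the von Willebrand factor receptor subunits Gp1bb, Gp5 and Gp9, the platelet receptor Treml1 and the protein kinase C substrate Plek. The 9 genes were taken by name, and each was read at its brightest feature (the probe set with the highest mean over all arrays). Of these 9 genes, 8 were measured, by 14 features, out of 24203 named genes and 44170 features. Gp1bb was not analysed here, because none of the feature names in the tables used matched it. Itga2b had 4 features, Treml1 3 and Itgb3 2.

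Total RNA of 8 spleens, labelled with Cy3, was hybridised to 1-colour NimbleGen arrays. The spleens came from 4 miR-155 knockout mice (Mim1-5 and Mim1-6, labelled female, and Mim2-2 and Mim2-3, labelled male) and 4 wild-type mice (WT-1 and WT-3, labelled female, and WT-2 and WT-4, labelled male). Each array was taken as 1 animal, since the series describes separate spleens. No treatment is named, and for the strain, the age and the knockout allele the sources used here give nothing. Values are log2 of the deposited RMA intensity (RMA takes off background, puts the arrays on a common scale and gives 1 value for the probes of each feature), so that a difference of 1 is a doubling.

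miR-155 is a microRNA of lymphocytes and myeloid cells, processed from the transcript called BIC. It is also made in blood progenitors. Megakaryocyte genes are switched on by GATA1 with its partners and by ETS family factors such as FLI1. GATAA and GGAAG are letters found in the core of GATA and ETS sites. The mature miR-155-5p sequence (chr16:84714143-84714165 of GRCm38.p6, plus strand, from RefSeq) is shown because its gene is the one the labels give as knocked out, with the seed, bases 2 to 8, in capitals.
mmu-miR-155-5p: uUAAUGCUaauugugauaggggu

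Promoters, read as 250 bases before to 50 bases after the gene start, were found in the RefSeq table (GRCm38.p6) for 8 of the 9 genes, and Itgb3 had no entry. GATAA, searched on both strands, was present in 4 of these 8 windows (those of Pf4, Gp5, Gp9 and Plek), against 25.4% of 32851 promoters of the same length. GGAAG, also searched on both strands and sharing no full match with GATAA, was present in 7 of 8 windows, against 71.4% of all promoters. These matches describe letters, not bound sites. Of the 8 windows, 3 are printed: those of Pf4 and Ppbp, the neighbouring chemokine genes, and that of Plek, the gene whose genotypes did not overlap. Capitals mark GATAA and GGAAG, or their complements TTATC and CTTCC. They lie on chr5:90772185-90772484 (Pf4, plus strand), chr5:90768268-90768567 (Ppbp, plus strand) and chr11:17008669-17008968 (Plek, minus strand), and each is printed on its own strand.
Pf4: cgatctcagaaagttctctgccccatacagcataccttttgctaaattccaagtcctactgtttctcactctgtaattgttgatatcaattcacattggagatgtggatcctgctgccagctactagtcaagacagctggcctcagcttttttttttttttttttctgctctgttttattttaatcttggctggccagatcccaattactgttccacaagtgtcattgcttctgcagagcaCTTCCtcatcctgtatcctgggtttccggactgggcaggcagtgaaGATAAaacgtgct
Ppbp: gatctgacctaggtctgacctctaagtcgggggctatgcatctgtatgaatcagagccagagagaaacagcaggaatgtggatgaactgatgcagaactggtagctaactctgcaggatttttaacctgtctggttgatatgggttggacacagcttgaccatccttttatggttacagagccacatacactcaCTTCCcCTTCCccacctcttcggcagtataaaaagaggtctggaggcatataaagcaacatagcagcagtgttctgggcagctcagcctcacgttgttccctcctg
Plek: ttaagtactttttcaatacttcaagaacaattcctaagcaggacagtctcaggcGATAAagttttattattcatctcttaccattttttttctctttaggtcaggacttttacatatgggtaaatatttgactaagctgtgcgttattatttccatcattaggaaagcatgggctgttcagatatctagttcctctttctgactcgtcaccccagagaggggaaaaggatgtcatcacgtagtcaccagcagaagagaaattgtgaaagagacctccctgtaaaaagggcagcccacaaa
The GATAA of Pf4 lies 37 bases after the gene start, and its GGAAG lies on the opposite strand, just before the start. Ppbp held GGAAG on the opposite strand at 2 places and no GATAA, and Plek held GATAA and no GGAAG.

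The knockout Mim2 pair stood apart from the other arrays. Over all features, the other 6 arrays correlated with each other at 0.911 to 0.943, the Mim2 arrays with these 6 at 0.811 to 0.877, and the Mim2 arrays with each other at 0.874. Array medians lay between 112.1 and 119.1 on the linear intensity scale, and the 5000 random probes, the background level used here, at a log2 intensity of 4.94 to 5.24. The labels were checked on genes that should follow them. The BIC feature (chr16:84713276-84715489 of MM9) had a mean log2 intensity of 5.91 over knockout arrays and 5.15 over wild-type arrays (limma, adjusted p = 0.521), and where its probes lie relative to the deletion is not known, so it checks nothing. The X-linked Xist and the Y-linked Ddx3y did not separate the labelled sexes: Xist averaged 10.13 on arrays labelled female and 9.95 on arrays labelled male, and Ddx3y 7.82 and 7.76. By genotype, Ddx3y averaged 8.66 in the knockout against 6.91 in the wild type, and Xist 9.52 against 10.56 (limma, adjusted p = 0.262 and 0.391), so whether the sex of the animals ran with the genotype is not known. "Male" and "female" below therefore mean the label. Among the knockout animals the labelled sex and the Mim1 or Mim2 name coincide and cannot be told apart.

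Against the label of spleen, transcripts of mammary epithelium and milk were bright. Of 12 mammary markers, 9 lay above the random probes on all 8 arrays (the exceptions were Wap, Glycam1 and Cldn3). Among all 24203 named genes, 15831 besides Pf4 also did, so this count is near the share of all genes. Their summed linear intensity ranged from 6602 to 84961 over knockout arrays and from 105852 to 126604 over wild-type arrays, and their mean log2 intensity was lowest on Mim2-2, at 7.73, and Mim2-3, at 9.31. All 12 had lower knockout means (log2 difference, median over the list -2.0), 9 of them at an unadjusted p under 0.05, against 14.3% of all genes. Because the list was drawn up knowing such genes to be bright on these arrays, these counts describe it and test nothing. B cell markers ran the other way, with a summed intensity of 11128 to 19131 over knockout arrays and 4077 to 6906 over wild-type arrays. These lists moved with the genotype in the same samples as the genes described below. With the mammary mean as a term in the fit, the median genotype difference of the 8 genes was 0.28 in place of 0.58. Ppbp then differed by 0.96 and Plek by 1.38, and none of the 8 had an unadjusted p under 0.05. Over all 24203 genes, the count at that p in limma also fell with this term, from 3465 to 1472. The fall was not confined to the 8 genes. The mammary mean was lower on every knockout array (7.73 to 10.82) than on every wild-type array (11.40 to 11.84). Because the term ran with the genotype, this fit cannot divide a difference between the 2. The part of the B cell list was not tested.

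Most measured marker genes of megakaryocytes and platelets lay above background. Of 10 defining markers, 8 had a feature (Gp1ba and Tubb1 were not matched), and 6 of these 8, namely Pf4, Itga2b, Gp9, Gp6, Clec1b and Vwf, lay above the random probes on all 8 arrays. Gp5 did not. None of the 8 was at background on every array. Besides Pf4, 15831 of the 24203 named genes also lay above the random probes on all 8 arrays. The count of 6 of 8 is near that share and does not by itself show the lineage. The plot of each array shows the 8 measured genes.

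**Figure D1:**
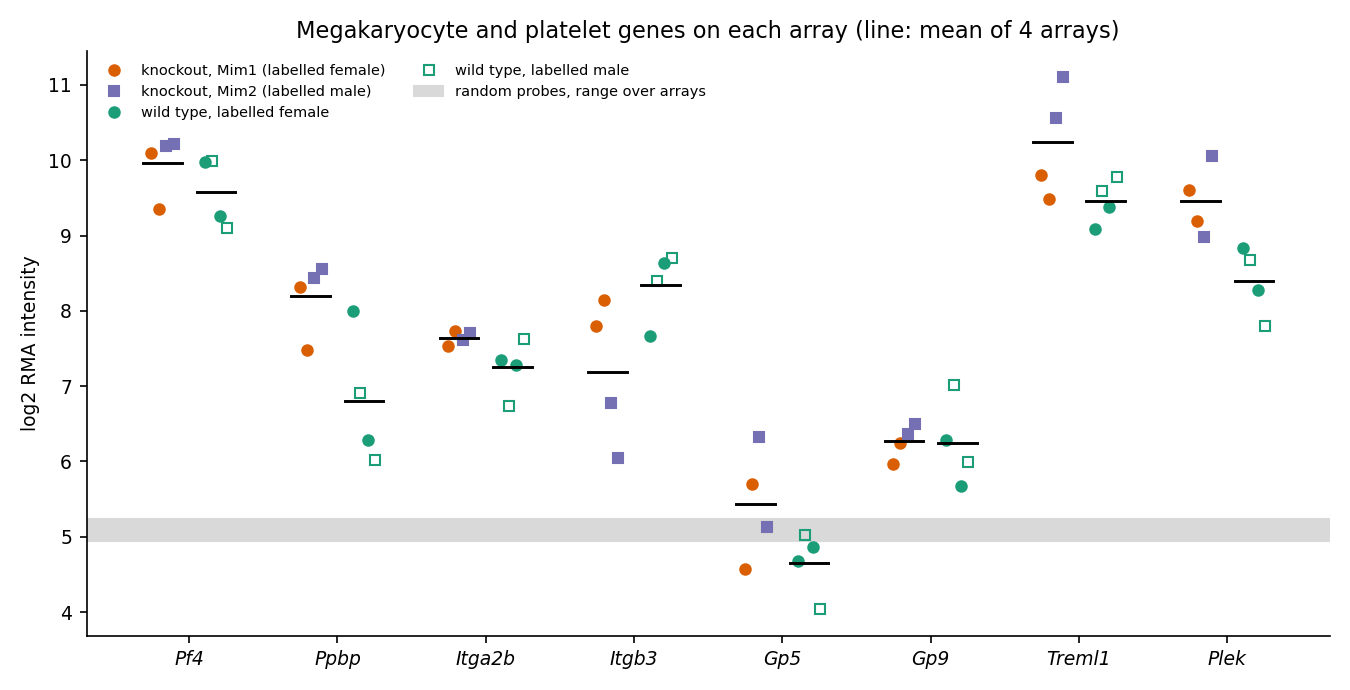
Log2 RMA intensity (vertical axis) of the 8 measured genes on each of 8 arrays, with knockout arrays left and wild-type arrays right of each gene name, labelled sex and Mim pair by colour and shape, the mean of 4 arrays as a line and the range of the random probes in grey. The genotypes of Plek do not overlap, those of the other 7 genes do, and Gp5 lies partly in or below the background band.

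Across genotypes, 7 of the 8 genes had a higher mean in the knockout and 1, Itgb3, a lower mean. The median difference was 0.58, against 0.06 over all 24203 genes, of which 53.9% were higher. None of the 8 passed the adjusted test in limma, where 0 of 44170 features (0.0%) did at an adjusted p under 0.05 and 6122 had an unadjusted p under 0.05, with 16 features passing under trend and robust variance. The smallest adjusted p among the 8 was 0.298, for Ppbp. At an unadjusted p under 0.05, 4 of the 8 were counted (Ppbp, Plek and Treml1 higher, Itgb3 lower), against 14.3% of all genes. This count was 3 without the sex term, where Treml1 was not counted, and 3 with array weights, where Itgb3 was not. It was 0 without WT-4, 1 without Mim2-3, and 2 without WT-2 or WT-3. Over all 24203 genes, the count ranged from 2092 to 4000 when 1 array was left out, against 3465 with all arrays. Genotypes did not overlap in 1 of the 8, against 7.83% of all genes, a share near the background. They did not overlap in 4 without Mim1-6, 3 without WT-1 and 2 without Mim1-5 or WT-4. Leaving out an array can only keep or raise this count, and the matching shares of all genes were not computed. In bulk RNA, a change in the number of megakaryocytes or platelets and a change in the RNA of each cell cannot be told apart.

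Pf4, platelet factor 4, is a chemokine stored in alpha granules and released on activation. It was measured by 1 feature (chr5:91201528-91202409, MM9). The log2 intensity was 10.09, 9.35, 10.19 and 10.22 on Mim1-5, Mim1-6, Mim2-2 and Mim2-3, and 9.98, 9.99, 9.26 and 9.10 on WT-1 to WT-4. Both genotypes held high and low arrays: Mim1-6, WT-3 and WT-4 were low and the other 5 were close together. The means were 9.96 ± 0.41 and 9.58 ± 0.47 (SD, n = 4 each), a difference of 0.38 ± 0.35 (SE; 95% interval -0.40 to 1.17; limma, adjusted p = 0.645). This interval includes 0 and also a doubling.

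Ppbp codes for pro-platelet basic protein, the precursor of the neutrophil-attracting chemokine NAP-2, and is kept in the same granules as Pf4. Its feature (chr5:91197576-91198485, MM9) lies 3042 bases from that of Pf4. The log2 intensity was 8.32, 7.48, 8.43 and 8.55 on the knockout arrays in the order above, and 8.0, 6.91, 6.29 and 6.02 on WT-1 to WT-4. The knockout arrays were the higher ones but for WT-1, which exceeded Mim1-6. The means were 8.19 ± 0.49 and 6.80 ± 0.88 (SD, n = 4 each), a difference of 1.39 ± 0.48 (SE; 95% interval 0.31 to 2.47), or 2.62-fold. This was the greatest difference among the 8 genes, with an unadjusted p of 0.0169 and an adjusted p of 0.298 in limma. Both chemokines had Mim1-6 as the lowest knockout array and WT-3 and WT-4 as the lowest wild-type arrays.

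The integrin that binds fibrinogen and lets platelets aggregate has 1 chain from Itga2b (CD41), a marker of the megakaryocyte lineage, and 1 from Itgb3 (CD61). CD61 also pairs with another alpha chain on macrophages and endothelium, and is carried by luminal progenitors of the mammary gland. Itga2b (chr11:102314610-102331058, MM9) read 7.53, 7.73, 7.61 and 7.71 on the 4 knockout arrays and 7.35, 6.74, 7.28 and 7.63 on WT-1 to WT-4. The knockout arrays lay close together and inside or just above the range of the wild type. The means were 7.64 ± 0.09 and 7.25 ± 0.37 (SD, n = 4 each), a difference of 0.39 ± 0.29 (SE; 95% interval -0.27 to 1.05; limma, adjusted p = 0.572). The other 3 features of Itga2b differed by -0.08, 0.60 and 0.39, so that they did not share 1 direction.

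Itgb3 ran against the other genes. Its brightest feature (chr11:104498700-104528522, MM9) read 7.80, 8.14, 6.78 and 6.05 on the 4 knockout arrays and 7.66, 8.40, 8.63 and 8.70 on WT-1 to WT-4. The Mim2 arrays were the lowest of the 8, while the Mim1 arrays lay within the wild-type range. The means were 7.19 ± 0.96 and 8.35 ± 0.48 (SD, n = 4 each), a difference of -1.15 ± 0.46 (SE; 95% interval -2.20 to -0.11; limma, unadjusted p = 0.0336, adjusted p = 0.334). The second feature of Itgb3, whose span is longer and which ends close to the first, differed by -0.29 (adjusted p = 0.726). The 2 chains of 1 receptor thus had differences of opposite sign. On the Mim2 arrays, where Itgb3 was lowest, the mammary markers were lowest too. Within the pair the order differed: the mammary mean was lower on Mim2-2 (7.73 against 9.31), and Itgb3 was lower on Mim2-3. The Pearson correlation with the mammary mean over the 8 arrays was 0.76 for Itgb3. It was negative for the other measured genes, from -0.21 (Gp9) to -0.81 (Gp5), with Treml1 at -0.80. Gp5 and Treml1 thus had values of like size, but Itgb3 alone among the 8 genes had a positive one. With the mean of the mammary markers as a term in limma, the Itgb3 difference was -0.49 over both sexes (adjusted p = 0.967). In the fit by labelled sex with this term, the Itgb3 difference was -3.83 in males and -0.75 in females. The term ran with the genotype, and the part of mammary content in the Itgb3 values was not tested.

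Gp9, with GP1BA, GP1BB and GP5, forms the receptor that catches platelets on von Willebrand factor. It (chr6:87728134-87729590, MM9) read 5.96, 6.24, 6.37 and 6.50 on the 4 knockout arrays and 6.28, 7.01, 5.68 and 5.99 on WT-1 to WT-4. All 4 knockout arrays lay inside the range of the wild type. The means of 6.27 ± 0.23 and 6.24 ± 0.57 (SD, n = 4 each) differed by 0.03 ± 0.32 (SE; 95% interval -0.70 to 0.76; limma, adjusted p = 0.977), and the sign turned under other settings (-0.02 after quantile normalization and -0.07 with array weights). Gp5, the subunit cut by thrombin, was near background (chr16:30308238-30309941, MM9). It read 4.57, 5.70, 6.33 and 5.13 on the knockout arrays, 2 of them above the random probes, and 4.68, 5.02, 4.87 and 4.04 on the wild-type arrays, none of them above. The knockout mean of 5.43 was 1.33-fold the background level of the wild-type arrays, whose measured mean was 4.65. The measured difference was 0.78 (95% interval -0.19 to 1.75, limma, adjusted p = 0.446), and this interval includes 0.

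Treml1 codes for TLT-1, a receptor of platelet alpha granules that reaches the surface on activation. Its brightest feature (chr17:48499240-48506471, MM9) read 9.8, 9.48, 10.56 and 11.10 on the 4 knockout arrays and 9.09, 9.59, 9.38 and 9.78 on WT-1 to WT-4. The Mim2 arrays were the highest of the 8, Mim1-5 just exceeded every wild-type array, and Mim1-6 lay within the wild-type range. The means were 10.23 ± 0.73 and 9.46 ± 0.30 (SD, n = 4 each), a difference of 0.77 ± 0.30 (SE; 95% interval 0.09 to 1.45), or 1.71-fold, with an unadjusted p of 0.0302 and an adjusted p of 0.327 in limma. The other 2 Treml1 features, which cover nearly the same span, differed by -0.03 and -0.69, so that the features of this gene disagreed in direction. As the mean of its 3 features, the difference was 0.02.

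Plek codes for pleckstrin, the major substrate of protein kinase C in platelets, which is also made by leukocytes. Its feature (chr11:16871450-16952384, MM9) read 9.60, 9.19, 8.98 and 10.06 on the 4 knockout arrays and 8.84, 8.67, 8.27 and 7.80 on WT-1 to WT-4. Every knockout array was above every wild-type array, although the lowest knockout array and the highest wild-type array were close. The means were 9.46 ± 0.48 and 8.40 ± 0.46 (SD, n = 4 each), a difference of 1.06 ± 0.37 (SE; 95% interval 0.23 to 1.88), or 2.08-fold, with an unadjusted p of 0.0175 and an adjusted p of 0.3 in limma. The plot of differences sets the features side by side.

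**Figure D2:**
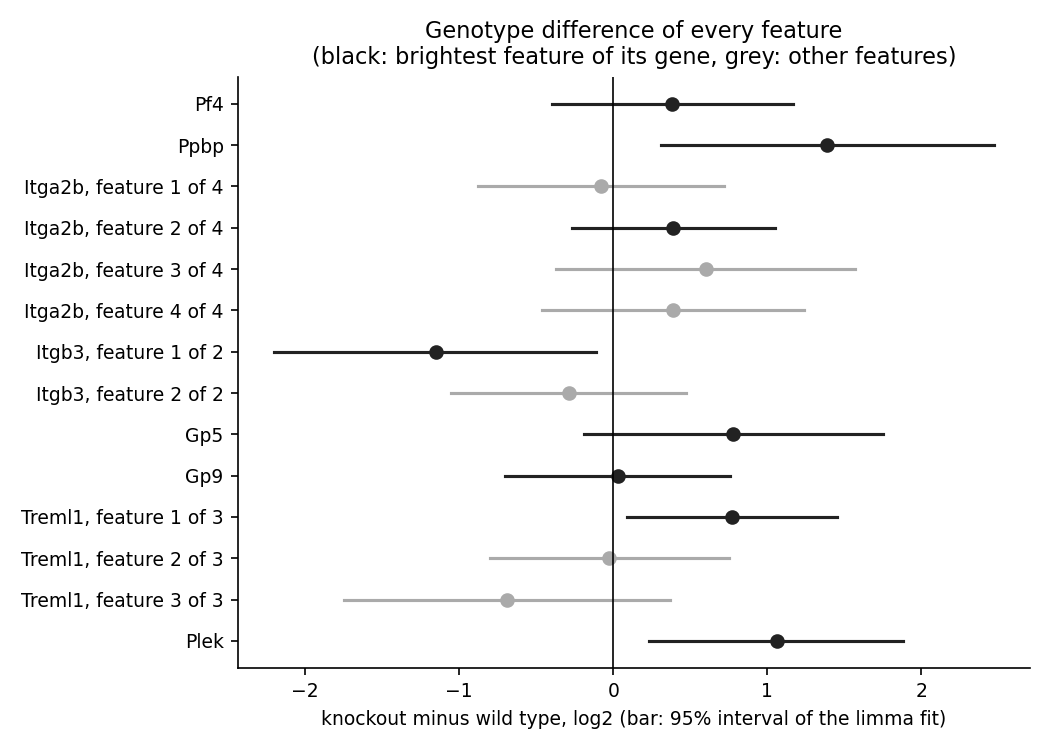
Difference of knockout minus wild type on the log2 scale (horizontal axis) for each of the 14 features, with the 95% interval of the limma fit as a bar, the brightest feature of a gene in black and others in grey. The intervals of Ppbp, Plek and 1 feature of Treml1 lie above 0, that of 1 feature of Itgb3 lies below 0, and those of the other features include 0.

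The difference was next taken within each labelled sex, that is Mim1 against wild-type females and Mim2 against wild-type males, with 2 arrays on each side. The median over the 8 genes was 0.33 in females and 0.90 in males, against 0.03 and 0.15 over all genes. In females, 0 of 44170 features (0.0%) passed the adjusted test in limma, where 2274 had an unadjusted p under 0.05, and none of the 8 genes did. In males 1875 features (4.24%) passed, among them 1 of the 8 genes, Itgb3. That feature count was 263 without Mim1-5 or Mim1-6, 1476 without Mim2-3, and 0 without Mim2-2 or any wild-type array. Itgb3 fell by 2.14 on the log2 scale in males (difference -2.14, unadjusted p = 0.00197, adjusted p = 0.0482), and its difference in females was -0.17 (adjusted p = 0.994). This call was close to the threshold and was lost when any 1 of the 8 arrays was left out (differences from -2.50 to -1.77, adjusted p from 0.0676 to 0.234). Its second feature differed by -0.92 in males (adjusted p = 0.172).

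Ppbp had a difference of 2.02 in males (adjusted p = 0.107) and 0.75 in females. Treml1 followed with 1.14 in males (adjusted p = 0.121) and 0.40 in females. Plek, the gene with the nearest values in both sexes among these 3, had 1.28 in males (adjusted p = 0.186) and 0.84 in females. Pf4 had 0.66 and 0.10, and Itga2b 0.47 and 0.31. For Ppbp, the Mim2 mean of 8.49 exceeded the Mim1 mean of 7.90, and the wild-type male mean of 6.46 lay below the wild-type female mean of 7.14. For Plek, the Mim means were close, at 9.52 and 9.39, and the wild-type males again lower, at 8.24 against 8.56. For Treml1 and Itgb3 the Mim2 arrays themselves lay farther out, at 10.83 against 9.64 for Mim1 and at 6.42 against 7.97, while the wild-type males were above the females for both. Without both Mim2 arrays, the genotype difference was 0.75 for Ppbp, 0.84 for Plek, 0.40 for Treml1, 0.10 for Pf4 and -0.17 for Itgb3. None of the 8 genes then had an unadjusted p under 0.05. Over all 24203 genes, 1494 had such a p in limma without these arrays, against 3465 with them.

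Whether the difference depended on the labelled sex was tested with an interaction term. In limma 0 of 44170 features (0.0%) passed after adjustment, where 5872 had an unadjusted p under 0.05, and 578 features passed under trend and robust variance. Of the 8 genes, 1 was counted at an unadjusted p under 0.05, against 13.6% of all genes, a share near the background. That gene was Itgb3, with an interaction of -1.96 ± 0.66 (SE; unadjusted p = 0.0184, adjusted p = 0.278). For Ppbp the interaction was 1.27 ± 0.89 (SE; adjusted p = 0.573).

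**Figure D3:**
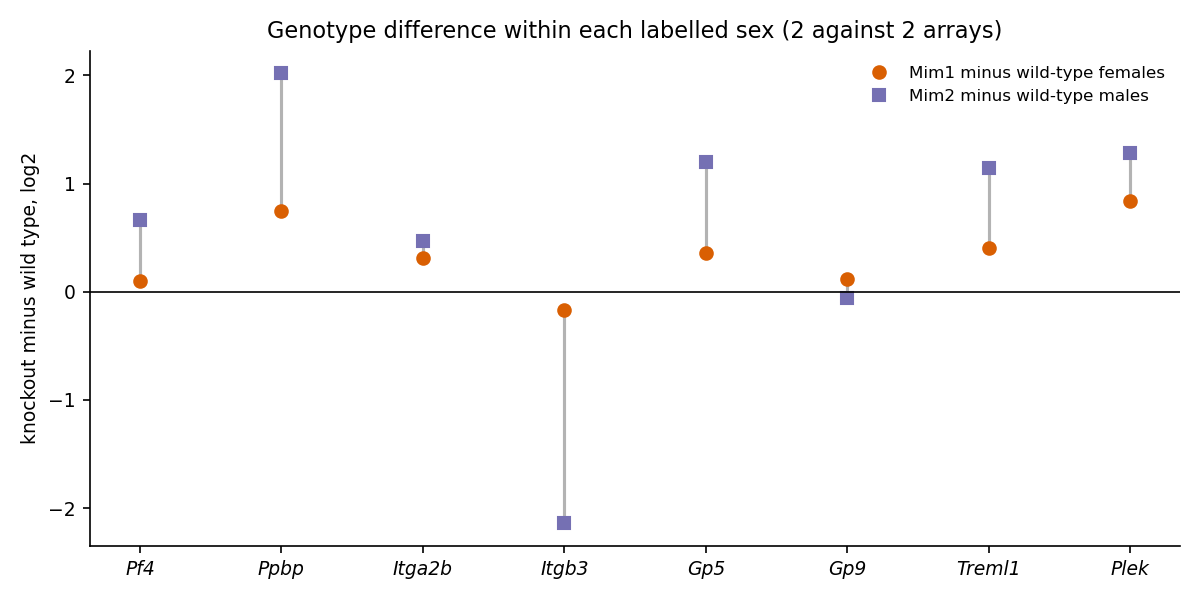
Difference of knockout minus wild type on the log2 scale (vertical axis) for the 8 genes, with circles for Mim1 against wild-type females and squares for Mim2 against wild-type males (2 arrays on each side) and no error bars. The squares lie farther from 0 than the circles for all genes but Gp9, with Ppbp at 2.02 and Itgb3 at -2.14.

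Other genes of the lineage were read from 4 lists of 73 genes in all (transcription factors, surface receptors, granule contents, and signalling and cytoskeleton), of which 67 were measured. Of the 67, 41 were higher and 26 lower in the knockout, with a median difference of 0.39 against 0.06 over all genes. In limma 0 passed the adjusted test (smallest adjusted p 0.262), 12 higher and 6 lower genes had an unadjusted p under 0.05, against 14.3% of all genes, and 10 had genotypes that did not overlap, against 7.83%.

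**Figure D4:**
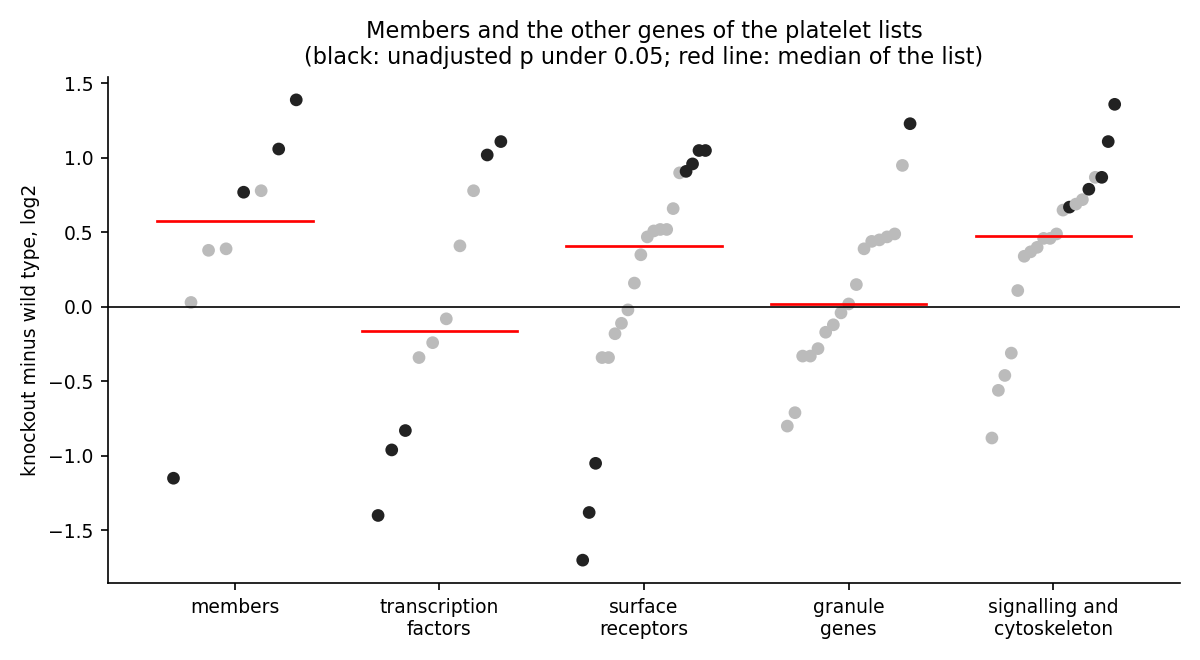
Difference of knockout minus wild type on the log2 scale (vertical axis) for the 8 measured genes and the 67 genes of the 4 platelet lists, each point 1 gene, black where the unadjusted limma p was under 0.05 and grey otherwise, with the median of each list as a red line. Signalling and cytoskeleton genes lie mostly above 0, with a median of 0.48, and transcription factors lie on both sides, with a median of -0.16.

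Transcription factors of the lineage did not share 1 direction. Of 10 measured (Fli1 and Zfpm1 were not matched), 4 were higher and 6 lower, with a median of -0.16. Nfe2, which drives the last steps of platelet release, averaged 7.59 ± 0.56 over knockout arrays and 8.99 ± 0.36 over wild-type arrays (SD, n = 4 each), a difference of -1.40 ± 0.35 (SE; limma, adjusted p = 0.262) with no overlap of the genotypes. Lmo2, a bridging protein of the GATA complexes, differed by 1.11 ± 0.33 (SE; adjusted p = 0.274), also with no overlap. Gata2, a factor of progenitors and early megakaryocytes, differed by 1.02 ± 0.34 (SE; adjusted p = 0.294). Tal1, the partner of Lmo2 in those complexes, differed by -0.96 ± 0.36 (SE; adjusted p = 0.315). These factors are shared with the red cell lineage, whose 10 measured markers had 3 higher and 7 lower genes and a median of -0.42. Of these 10, 1 had an unadjusted p under 0.05 in limma, against 14.3% of all genes. The median of the red cell list was -0.78 in females and -0.02 in males.

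Among 20 measured surface receptors, 12 were higher and 8 lower, with a median of 0.41, and Itga2, P2ry1, P2ry12 and Cd226 were among those not above the random probes on all arrays. Of the genes with the smallest p, 3 were lower, and none of these is particular to platelets. Itgb1, the beta chain of the collagen receptor, differed by -1.05 ± 0.28 (SE; adjusted p = 0.266), and the tetraspanin Cd9 by -1.38 ± 0.38 (SE; adjusted p = 0.266). Itga6, a laminin receptor chain, differed by -1.70 ± 0.59 (SE; adjusted p = 0.303). Like Itgb3, the latter pair had larger differences in males: Cd9 -2.22 against -0.54 in females, and Itga6 -3.22 against -0.17. In males both passed the adjusted test in limma (adjusted p = 0.0267 and 0.0225), where 4.24% of all features did. All 3 are also abundant in epithelium, and the mammary markers were lowest on the same Mim2 arrays; the part of these markers in the values was not tested. Jam3, an adhesion molecule of the junction family, differed by 1.05 ± 0.32 (SE; adjusted p = 0.282) with no overlap. Clec1b, which codes for the podoplanin receptor CLEC-2, averaged 9.40 ± 0.85 and 8.43 ± 0.33 (SD, n = 4 each), a difference of 0.96 ± 0.42 (SE; adjusted p = 0.357). Gp6, the collagen receptor that signals through the Fc receptor gamma chain, differed by 0.52 ± 0.29 (SE; adjusted p = 0.453).

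Granule genes were evenly divided, with 9 of 17 higher and 8 lower and a median of 0.02. Srgn, the proteoglycan serglycin, which binds Pf4 in the granule and is also made by leukocytes, averaged 11.60 ± 0.38 and 10.38 ± 0.70 (SD, n = 4 each), a difference of 1.23 ± 0.40 (SE; limma, adjusted p = 0.292) with no overlap. Its difference was 2.03 in males (limma, adjusted p = 0.0428) and 0.42 in females (adjusted p = 0.987). Thbs1, thrombospondin 1, differed by -0.80 ± 0.38 (SE; adjusted p = 0.388), and Sparc, a matrix protein that stroma also makes, by 0.44 ± 0.31 (SE; adjusted p = 0.537). Selp, P-selectin, was near background, with 3 knockout arrays and 0 wild-type arrays above the random probes.

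Of the 4 platelet lists, signalling and cytoskeleton genes had the highest share of genes in 1 direction, with 16 of 20 higher, 4 lower and a median of 0.48. In this list 5 of 20 were higher at an unadjusted p under 0.05 and 0 were lower, where 1864 of all 24203 genes were higher and 1601 lower. Myl9, the myosin light chain of platelets and smooth muscle, averaged 11.84 ± 0.39 and 10.48 ± 0.60 (SD, n = 4 each), a difference of 1.36 ± 0.38 (SE; limma, adjusted p = 0.268) with no overlap. Bin2, a membrane-bending protein of blood cells, differed by 0.87 ± 0.28 (SE; adjusted p = 0.289), and Alox12, platelet 12-lipoxygenase, by 1.11 ± 0.39 (SE; adjusted p = 0.307). Rasgrp2, which activates the integrin through RAP1 and is also used by lymphocytes, differed by 0.79 ± 0.28 (SE; adjusted p = 0.308) with no overlap. The macrophage list had 8 of 10 genes higher, with a median of 0.57 and a summed intensity of 23691 to 35126 over knockout arrays and 14641 to 28151 over wild-type arrays. The endothelial list had 6 of 8 higher, with a median of 0.31. The neutrophil list ran the other way, with 3 of 8 higher, 5 lower and a median of -0.32. Over all genes, 53.9% were higher.

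The mean log2 intensity of the 8 measured genes was 7.96, 7.91, 8.16 and 8.16 on the knockout arrays and 7.73, 7.79, 7.46 and 7.38 on WT-1 to WT-4, so that the 4 knockout means lay above the 4 wild-type means. The mean of the 8 defining markers was 7.13, 7.12, 7.56 and 7.24 against 6.97, 6.94, 6.61 and 6.84. The B cell list moved in the same samples, with means of 9.52 to 10.34 over knockout arrays and 8.38 to 8.88 over wild-type arrays, a wider gap than that of the 8 genes. What part of these shifts is a change of the cell makeup of the samples was not tested.

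**Figure D5:**
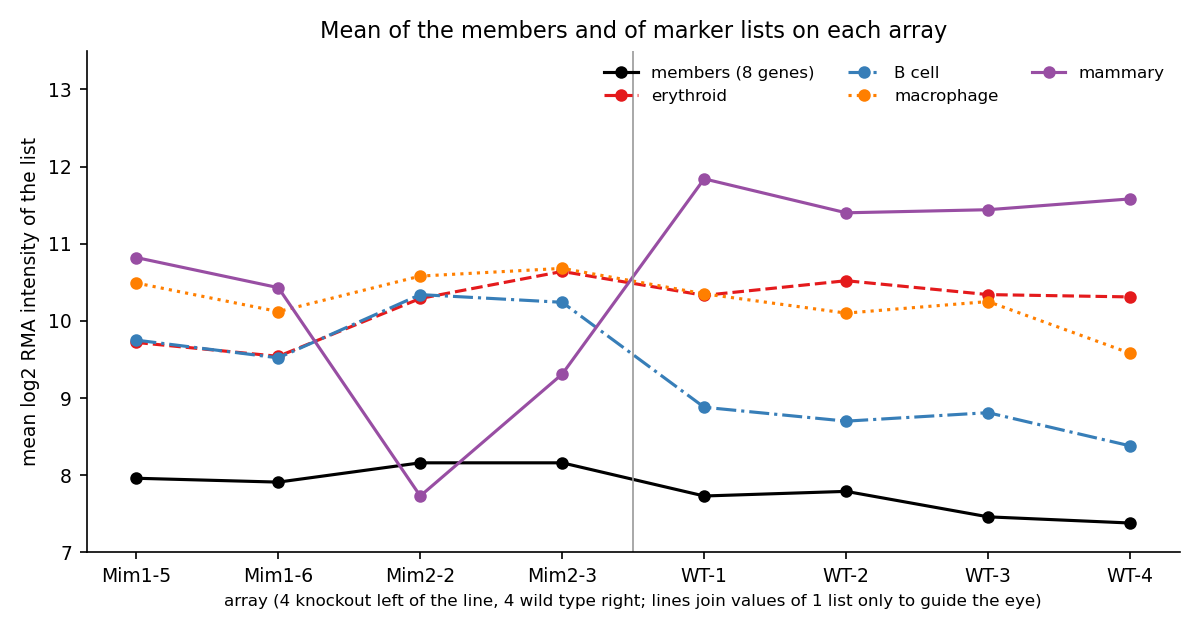
Mean log2 RMA intensity (vertical axis) of the 8 measured genes and of the erythroid, B cell, macrophage and mammary marker lists on each of the 8 arrays (horizontal axis), with knockout arrays left of the grey line; lines join the values of a list only to guide the eye. The 8 genes range from 7.38 to 8.16, while the mammary list falls to 7.73 on Mim2-2 and reaches 11.84 on WT-1.

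The genes whose pattern was most like that of Pf4 over the 8 arrays, among 15831 genes above the random probes on every array, were Gm3758 (Pearson r 0.997), Lrmp (0.973), Gm13212 (0.972), Gm4299 (0.967) and Apobec2 (0.964). None of them is on the platelet lists, and all had low values on Mim1-6, WT-3 and WT-4, as Pf4 had. The genes most like Itga2b were Cd79a (0.958), Gm14758 (0.947), Atp5f1 (0.900), Gm2136 (0.883) and Cst3 (0.880). Cd79a is a B cell receptor chain and Cst3 a secreted protease inhibitor. These genes were picked as the most alike of many, with 8 arrays as points that share the groups and the Mim2 pair, so the values describe these arrays alone.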

How the data were processed

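Each array has a table, deposited by the authors, of linear intensity per feature, made with RMA per the submitters' processing notes, with no version stated in the sources used here. Of 44170 features, 44155 rest on 3 probes, and positions are in MM9. The deposited table of the series holds 21856 of these features with equal values within a relative tolerance of 1e-05, and served as an alternative.

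Log2 values were fitted with limma 3.58.1 in R 4.3.3 (lmFit and eBayes, genotype plus labelled sex, then their interaction), with two-sided p-values adjusted by Benjamini-Hochberg over all features at 0.05. The script was tested on simulated data. The brightest feature stood for a gene. For Gp5, the fold was taken against the level of the random probes on the wild-type arrays. The number of arrays limits the precision. Genes named were all 9 members, up to 4 genes per list with the smallest unadjusted p, and the 5 most correlated with Pf4 and with Itga2b. One listed gene is not reported here by name. Members and lists were chosen with earlier results of these data known. No paired analysis was possible because a number in an animal's name, where shared across genotypes, marks different animals and no pairing is labelled.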

Additional observations from a re-analysis of the deposited data

Results flagged for a closer look

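Among 48 groups of 4 arrays checked (a gene in a genotype), 1 held an array far from the other 3. The log2 intensity of Pf4 on Mim1-6 was 9.35, below the other knockout arrays, with a gap to the nearest of 0.849 of the range, above Dixon's 95% critical value for 4 samples. Chance alone gives such a gap in about 1 in 20 groups. Without Mim1-6 the genotypes did not overlap in 4 of the 8 genes instead of 1. Leaving out an array can only keep or raise this count, and the share of all genes without Mim1-6 was not computed.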

How the results depend on the processing

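None of the 149 values of the genotype difference recomputed for the 8 genes passed the adjusted test (lowest adjusted p 0.154), and 143 kept their direction. The 6 that turned were Gp9, -0.02 after quantile normalization, -0.07 with array weights and from -0.16 to 0.25 when 1 array was left out, and Gp5, -0.49 with the mammary mean as a term. Over all features, trend and robust variance called 16. The median of the 8 genes was 0.39 without dim features (7 genes), 0.35 with feature means, 0.28 with the mammary term, 0.33 without both Mim2 arrays and 0.42 to 0.69 when 1 array was left out. The count at an unadjusted p under 0.05 was 3 without the sex term, 3 with array weights, 2 with feature means, 0 with the mammary term and 0 without both Mim2 arrays. Over all 24203 genes, the counts in these settings were 2945, 3226, 3374, 1472 and 1494, against 3465 in the main fit. For the 8 genes, leaving out 1 array gave 0 to 4, with 0 without WT-4, 1 without Mim2-3 and 2 without WT-2 or WT-3. Over all genes it gave 2092 to 4000. Genotypes did not overlap in 1 to 4 of the 8 genes when 1 array was left out (4 without Mim1-6, 3 without WT-1, 2 without Mim1-5 or WT-4). The matching shares of all genes were not computed.

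For the interaction, series table values called 311 features, trend and robust variance 578 and feature means 1. Its median over the 8 genes was 0.69 after quantile normalization and 0.18 to 0.77 when 1 array was left out. None of 133 values passed, and 5 turned: Gp5 -0.94 (mammary term), Plek -0.10 (without Mim2-3), Itga2b -0.28 (without WT-2), and Gp9 0.33 and 0.11 (without WT-2 and WT-3). Over all single arrays left out these ranged from -0.10 to 0.98 for Plek, -0.28 to 0.60 for Itga2b and -0.70 to 0.33 for Gp9. In males, features called were 4830 with series table values, 4266 with trend and robust variance, 1041 with array weights, 1072 with feature means, 0 with the mammary term, and 0 to 1476 when 1 array was left out (263 without Mim1-5 or Mim1-6, 1476 without Mim2-3, 0 otherwise).

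Of 170 values within a labelled sex, 6 turned, all in females: Itgb3 0.08 and Treml1 -0.53 with feature means, Pf4 -0.26 without Mim1-5, and without WT-3 Pf4 -0.26, Ppbp -0.10 and Itgb3 0.32. With 1 array left out, the female difference ranged from -0.26 to 0.47 for Pf4, -0.10 to 1.61 for Ppbp and -0.66 to 0.32 for Itgb3. The Itgb3 call in males was lost with array weights (-2.14, adjusted p = 0.0661), feature means (-1.53, 0.055) and the mammary term (-3.83, 0.353). Ppbp and Treml1 passed in males with series table values (adjusted p = 0.0455 and 0.0404), and Treml1 with trend and robust variance (0.0443). The cause of each change was not tested. The interaction could not be fitted without both Mim2 arrays or without the sex term. Signal over background limits Gp5.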
